A study of Mus musculus with 12 samples.

Results

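The mitosis and G2/M genes are 43 genes whose products take a cell through late G2 phase, chromosome segregation and cytokinesis. They were picked by symbol out of the 23337 gene symbols counted in each library, and all 43 were found and passed the filter on low counts. The libraries are RNA-seq of regulatory T cells (Treg), the Foxp3-expressing CD4+ T cells that restrain immune responses, of C57BL/6 mice aged 8 weeks. The 12 libraries formed 4 groups of 3. Induced Treg (iTreg), made from CD4 T cells during 5 days in culture with IL2 and TGFbeta and then isolated as GFP+ cells, came from mice labelled KO or WT. Natural Treg (nTreg), sorted as CD4+GFP+ cells of spleen and lymph nodes without culture, also came from mice labelled KO or WT. KO stands for Hrd1 flox/flox and WT for Hrd1 +/flox, and mice of both labels carried the FoxP3-cre with its GFP. Every group was therefore exposed to Cre, the WT label has a floxed allele too, and Cre can act only once Foxp3 is on, which in iTreg is a point within the culture. Hrd1 (gene symbol Syvn1) encodes an E3 ligase that marks misfolded proteins of the endoplasmic reticulum for degradation. Whether replicate libraries of a group stem from different animals is not stated, so the tests speak of the variation among these libraries. Replicates of a group that differ in Xist or Ddx3y, given below, did not hold RNA of the same animals alone. Among the other replicates the variation may be technical.

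Entry into mitosis depends on the kinase Cdk1 bound to a cyclin of the B type, which builds up in G2, and ends when the anaphase-promoting complex has that cyclin degraded. Transcripts of most of these genes are low in resting cells and peak in G2 and M phase, under factors that include Foxm1, B-Myb, NF-Y at CCAAT boxes and the DREAM complex at the cell cycle homology region. T cells divide rapidly after activation in culture, while only a fraction of Treg in lymphoid organs is in cycle at a given time. In bulk RNA, fewer cells in cycle and less RNA of these genes per cell cannot be told apart.

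The promoters were examined for sequence shared by members, because most members differed together between the cell types. RefSeq promoters (GRCm38.p6) of 300 bases, 250 before the start and 50 after it, were at hand for 34 of the 43 members and were searched on both strands for CCAAT, the NF-Y box, and for TTTGAA, the letters typical of the cell cycle homology region. CCAAT lay in the promoters of 28 of the 34 members, or 82.4%, against 41.1% of all 27025 promoters. TTTGAA lay in 27 of 34, or 79.4%, against 20.2%, and TTTAAA, a variant of the same region that reads alike on both strands, in 9 of 34, or 26.5%, against 14.9%. Both CCAAT and TTTGAA were present in 24 of 34, or 70.6%, against 7.97%. A pair of matches overlapped 1 time over all members' promoters. These matches are letters in a window and not mapped binding sites. The 200 bases before the start are shown for 8 members, with capitals for CCAAT (or ATTGG, its other strand), TTTGAA (or TTCAAA) and TTTAAA. The first 4, at chr10:69352913-69353112 (minus strand), chr9:70421555-70421754 (minus strand), chr4:118437344-118437543 (minus strand) and chr11:99024190-99024389 (minus strand), hold both motifs in a core set of mitotic genes that were far higher in iTreg.
Cdk1: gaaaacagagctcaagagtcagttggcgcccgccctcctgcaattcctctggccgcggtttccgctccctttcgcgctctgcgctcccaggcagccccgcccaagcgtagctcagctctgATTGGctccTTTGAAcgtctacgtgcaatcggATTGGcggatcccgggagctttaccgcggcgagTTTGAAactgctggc
Ccnb2: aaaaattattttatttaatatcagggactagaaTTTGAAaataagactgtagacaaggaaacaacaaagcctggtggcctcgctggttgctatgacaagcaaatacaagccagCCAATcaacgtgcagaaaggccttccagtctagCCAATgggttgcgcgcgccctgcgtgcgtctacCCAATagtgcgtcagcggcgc
Cdc20: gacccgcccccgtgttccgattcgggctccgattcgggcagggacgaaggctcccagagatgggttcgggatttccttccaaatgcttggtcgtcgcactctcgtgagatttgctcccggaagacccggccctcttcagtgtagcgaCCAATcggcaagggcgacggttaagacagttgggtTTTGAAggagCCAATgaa
Top2a: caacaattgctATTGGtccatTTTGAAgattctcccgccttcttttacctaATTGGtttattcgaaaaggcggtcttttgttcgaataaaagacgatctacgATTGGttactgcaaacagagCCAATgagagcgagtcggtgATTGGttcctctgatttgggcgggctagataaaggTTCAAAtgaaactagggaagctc
The next 2 belong to genes that differed with the KO label only in the fit that pairs replicate numbers, and lie at chr19:37376182-37376381 (plus strand) and chr7:135716380-135716579 (minus strand).
Kif11: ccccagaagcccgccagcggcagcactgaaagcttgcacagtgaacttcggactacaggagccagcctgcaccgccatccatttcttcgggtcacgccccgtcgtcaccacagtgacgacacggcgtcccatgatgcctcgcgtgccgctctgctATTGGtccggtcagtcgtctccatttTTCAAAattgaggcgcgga
Mki67: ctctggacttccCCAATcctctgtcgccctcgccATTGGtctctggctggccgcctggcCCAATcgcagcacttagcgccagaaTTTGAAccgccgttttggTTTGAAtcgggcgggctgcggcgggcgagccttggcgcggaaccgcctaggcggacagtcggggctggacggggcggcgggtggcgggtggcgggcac
The last 2 are shown for contrast. Cdc25b, at chr2:131186748-131186947 (plus strand), holds CCAAT but not TTTGAA and was the only member not called between iTreg and nTreg. Ccnb1, Bub1 and Cenpe also hold CCAAT but not TTTGAA in their windows and were called higher in iTreg. Of these, Ccnb1 and Cenpe hold 1 TTTAAA each, while Bub1, like Cdc25b, holds 0. Whether these motifs bear on the level of any member was not tested. Mad2l1, at chr6:66535021-66535220 (plus strand), has none of these motifs in its window and was called higher in iTreg. Its 300-base window ends at 66535270, while GENCODE M21 starts the gene at 66535390, so the bases at that start were not searched.
Cdc25b: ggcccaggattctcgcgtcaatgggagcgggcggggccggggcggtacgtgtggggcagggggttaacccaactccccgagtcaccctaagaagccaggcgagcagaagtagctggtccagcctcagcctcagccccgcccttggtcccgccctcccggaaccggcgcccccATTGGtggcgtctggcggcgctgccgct
Mad2l1: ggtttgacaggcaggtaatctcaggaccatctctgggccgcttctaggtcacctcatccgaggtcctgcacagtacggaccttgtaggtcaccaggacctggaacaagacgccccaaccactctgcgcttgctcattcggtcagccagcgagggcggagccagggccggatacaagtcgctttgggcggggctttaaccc

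Total counts per library ran from 6763458 to 15462894. Levels are CPM, counts scaled to the size of the library after TMM normalisation. Treg markers summed to 3797 to 5087 CPM in the 12 libraries, and Foxp3 was present in all. Syvn1 went against the KO label in nTreg, with 145.5, 136.8 and 129.7 CPM in nTreg KO libraries, against 73.7, 87.2 and 75.5 CPM in nTreg WT libraries (log2 fold change 0.80, SE 0.17, adjusted p = 0.023, edgeR). In iTreg it had 54.6, 73.1 and 63.1 CPM in iTreg KO libraries, against 61.6, 72.2 and 101 CPM in iTreg WT libraries, which overlapped (log2 fold change -0.30, SE 0.17, adjusted p = 0.75). These are counts over the whole gene, which include exons outside any deleted part, so the count does not check the label, and KO means the libraries labelled KO throughout. A list of 12 myeloid markers, among them Csf1r, C1qa and Mrc1, summed to 44.4 to 498 CPM in nTreg KO libraries and 58.9 to 225 CPM in nTreg WT libraries, highest in the libraries numbered 2 of both labels. The same sum was 4.13 to 6.02 CPM in iTreg KO libraries and 4.13 to 5.42 CPM in iTreg WT libraries, with Csf1r, C1qa and Mrc1 at or near 0. Xist stood out in 3 libraries, with at most 0.232 CPM in the others. These were both nTreg libraries numbered 3 (483 CPM with the KO label and 729 CPM with the WT label) and iTreg WT library 2 (2027 CPM). Of the 12 libraries, iTreg WT library 2 alone had no reads of the Y-linked gene Ddx3y. Libraries of the same number deviated together between the KO and WT labels within each cell type, and a second fit that pairs them (replicate block) is given where it changes a call.

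Induced Treg held far more RNA of the mitotic genes than natural Treg under both labels. With the KO label, 41 of the 43 members were higher in iTreg and 1, Smc4, was lower (adjusted p under the threshold of 0.05, edgeR quasi-likelihood F test, Benjamini-Hochberg over 12038 genes), where 61.9% of all genes were called in either direction, 32.1% higher and 29.8% lower. The median log2 fold change of the members was 3.03, an 8.19-fold difference, and that of all genes 0.01. With the WT label, 41 members were again higher and Smc4 lower, beside 65.2% of all genes called, 34.8% higher and 30.4% lower, and the median was 3.84, or 14.4-fold, against 0.05 for all genes. Cdc25b was the member not called in either. A fit that pairs iTreg and nTreg libraries of the same number and label also called 42 members under each label, beside 58.6% of all genes with KO and 62.5% with WT. Libraries of the same number did not deviate together between the cell types, so that pairing has no basis in these counts. Natural Treg were sorted directly and induced Treg were cultured, so cell type and culture cannot be told apart, and the part of the myeloid transcripts in nTreg was not tested. All 43 members summed to 9501 to 10860 CPM in iTreg KO libraries and 12100 to 13110 CPM in iTreg WT libraries. In nTreg they summed to 2150 to 2625 CPM with KO and 2086 to 2599 CPM with WT, which overlapped. Smc4 was a large part of the nTreg sums. Without Smc4, the members summed to 8991 to 10370 CPM in iTreg KO libraries and 11480 to 12480 CPM in iTreg WT libraries. The nTreg sums without Smc4 were 1221 to 1691 CPM with KO and 763 to 1278 CPM with WT. That is 0.899% to 1.25% of all counts in iTreg and 0.0763% to 0.169% in nTreg.

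**Figure D1:**
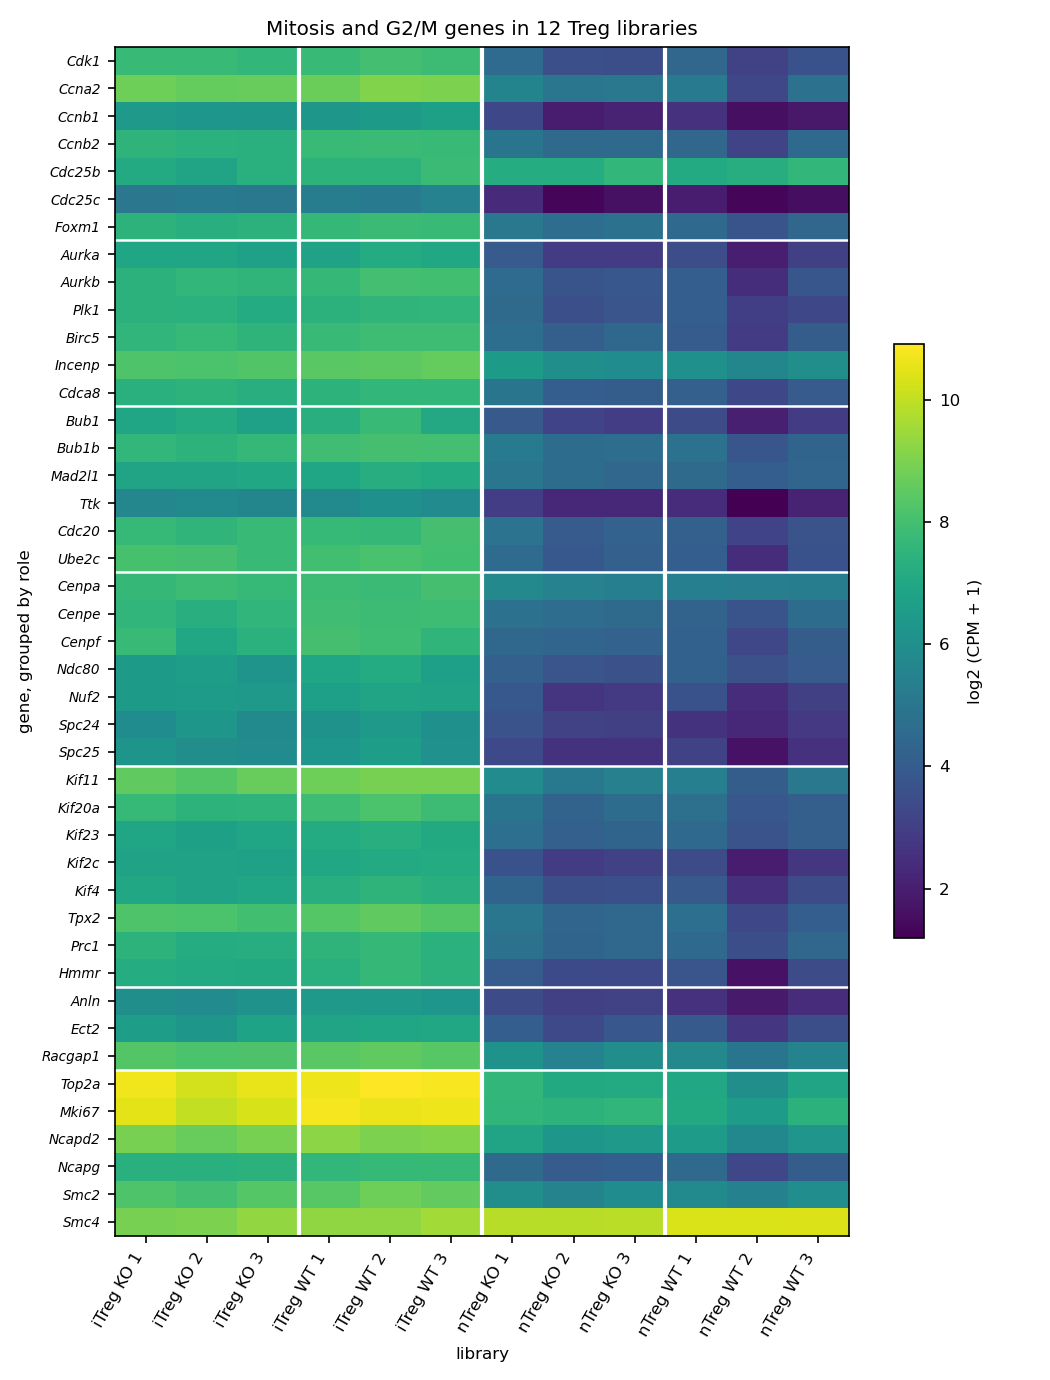
Level of the 43 mitosis and G2/M genes in each of the 12 libraries, as log2 (CPM + 1) on a colour scale, with genes in rows grouped by role and libraries in columns. The 6 iTreg columns are brighter than the 6 nTreg columns for every gene but Cdc25b, which overlaps, and Smc4, which is brighter in nTreg.

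Among the genes of mitotic entry, Cdk1, the kinase that drives it, had 212, 218 and 198 CPM in iTreg KO libraries, 210.2, 258 and 228 CPM in iTreg WT libraries, 22.7, 10.7 and 10.6 CPM in nTreg KO libraries and 19.8, 7.36 and 11.4 CPM in nTreg WT libraries. Ccnb1, the cyclin that activates Cdk1 at the start of mitosis, had 86.3, 78.2 and 79.2 CPM in iTreg KO libraries, 79, 88.2 and 104 CPM in iTreg WT libraries, 8.81, 2.90 and 3.45 CPM in nTreg KO libraries and 4.87, 1.98 and 2.60 CPM in nTreg WT libraries. No iTreg library overlapped an nTreg library for either gene, as for 41 of 43 members under each label with iTreg above, beside 34.1% of all genes with KO and 37.4% with WT. Ccnb1 had the largest fold difference of all members under both labels, 16.7-fold with KO (log2 4.06, SE 0.35, adjusted p = 1.56e-06) and 29.2-fold with WT (log2 4.87, SE 0.38, adjusted p = 5.24e-07). For Cdk1 the difference was 14.5-fold with KO (log2 3.85, SE 0.33) and 18.1-fold with WT (log2 4.18, SE 0.34). Ccna2, the cyclin of S and G2 phase, had 431, 392 and 400.3 CPM in iTreg KO libraries, 426, 538 and 503 CPM in iTreg WT libraries, 46.4, 31 and 33.1 CPM in nTreg KO libraries and 36.9, 8.49 and 27.1 CPM in nTreg WT libraries, again with a wide gap between the cell types. Cdc25c, a phosphatase that removes the inhibitory phosphates from Cdk1, was the member with the lowest level per kilobase of exon in all 4 groups, at 31.8, 34.3 and 32.4 CPM in iTreg KO libraries, 37.4, 36.6 and 43.8 CPM in iTreg WT libraries, 4.06, 1.51 and 2.05 CPM in nTreg KO libraries and 2.81, 1.56 and 1.95 CPM in nTreg WT libraries. Foxm1, the transcription factor of many G2/M genes, had 176, 156 and 172 CPM in iTreg KO libraries, 201, 223 and 213 CPM in iTreg WT libraries, 32.8, 24.2 and 27.2 CPM in nTreg KO libraries and 21.7, 12 and 20.3 CPM in nTreg WT libraries, and its groups were well apart. Ccnb2, the second cyclin of the B type, averaged 169 ± 9.19 CPM in iTreg KO libraries and 216 ± 7.16 CPM in iTreg WT libraries, against 24.8 ± 4.42 CPM in nTreg KO libraries and 16.5 ± 7.34 CPM in nTreg WT libraries (SD, n = 3 each).

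Cdc25b, a phosphatase thought to start Cdk1 activation at the centrosome, stood apart. It had 140.5, 116 and 164 CPM in iTreg KO libraries, 175, 176 and 222 CPM in iTreg WT libraries, 147, 147 and 197 CPM in nTreg KO libraries and 137, 149.6 and 198 CPM in nTreg WT libraries. The iTreg and nTreg libraries overlapped under both labels, with log2 differences of -0.23 with KO (95% interval -0.62 to 0.16, adjusted p = 0.29) and 0.24 with WT (-0.15 to 0.63, adjusted p = 0.26). In nTreg it was the member with the second highest level per kilobase of exon, at 44.0 CPM per kb with KO and 43.4 CPM per kb with WT.

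All 6 members of the Aurora and Polo kinases and the chromosomal passenger complex were called higher in iTreg under both labels. Aurkb, the kinase of that complex, which corrects faulty attachment of chromosomes, had 174, 196 and 188 CPM in iTreg KO libraries, 201, 259 and 247 CPM in iTreg WT libraries, 22.7, 12 and 13.1 CPM in nTreg KO libraries and 16.1, 4.53 and 12.7 CPM in nTreg WT libraries. Its difference was 11.8-fold with KO (log2 3.56, SE 0.33) and 21.1-fold with WT (log2 4.40, SE 0.35). Aurka, the kinase of the spindle poles, had 119.6, 123 and 105 CPM in iTreg KO libraries, 109.7, 141 and 129 CPM in iTreg WT libraries, 14.6, 6.49 and 6.37 CPM in nTreg KO libraries and 10.2, 2.97 and 7.07 CPM in nTreg WT libraries. Both kinases were far higher in every iTreg library than in any nTreg library. Incenp, the scaffold of the passenger complex, had 299, 281 and 312 CPM in iTreg KO libraries, 343, 354 and 392 CPM in iTreg WT libraries, 87.6, 64.5 and 59.6 CPM in nTreg KO libraries and 65.4, 49.1 and 62.6 CPM in nTreg WT libraries, the smallest difference of the role group at 4.22-fold with KO and 6.15-fold with WT. Plk1, the Polo kinase, was 10.7-fold and 17.5-fold higher with KO and WT. Birc5 (survivin) was 9.32-fold and 18.1-fold higher and Cdca8 (borealin) 8.07-fold and 14.0-fold higher in the same order.

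The checkpoint and anaphase genes, 6 of 6 called higher under both labels, included some of the largest differences. Bub1, a kinase that holds the spindle checkpoint at unattached kinetochores, had 121, 143 and 105 CPM in iTreg KO libraries, 159.8, 220.3 and 134 CPM in iTreg WT libraries, 13.8, 7.75 and 6.69 CPM in nTreg KO libraries and 9.60, 3.11 and 6.61 CPM in nTreg WT libraries. Ube2c, the ubiquitin-conjugating enzyme that works with the anaphase-promoting complex, had 269, 261 and 213 CPM in iTreg KO libraries, 247, 279.8 and 248 CPM in iTreg WT libraries, 22.9, 13.7 and 17.2 CPM in nTreg KO libraries and 16.2, 4.53 and 11.5 CPM in nTreg WT libraries. Bub1 was 13.3-fold higher with KO and 26.6-fold with WT, and Ube2c 13.9-fold and 23.9-fold. The exons of Ube2c share 22.8% of their bases with Tnnc2 on the other strand, and whether counting used strand is not given, so its level is less certain. Mad2l1, the checkpoint protein that blocks Cdc20, had 116, 116 and 124 CPM in iTreg KO libraries, 119.7, 149 and 141 CPM in iTreg WT libraries, 31.1, 23.4 and 20.2 CPM in nTreg KO libraries and 22.2, 16.1 and 19.3 CPM in nTreg WT libraries, the smallest difference of these 6 (4.77-fold with KO, 7.12-fold with WT). Cdc20, the activator of the anaphase-promoting complex, had 208, 184 and 209.9 CPM in iTreg KO libraries, 209.5, 204 and 266 CPM in iTreg WT libraries, 28.6, 14.9 and 17.7 CPM in nTreg KO libraries and 17, 7.93 and 11.7 CPM in nTreg WT libraries. Ttk, the kinase that recruits the checkpoint, averaged 51.4 ± 3.82 CPM in iTreg KO libraries and 60.4 ± 5.29 CPM in iTreg WT libraries, against 4.84 ± 1.63 CPM in nTreg KO libraries and 3.0 ± 1.55 CPM in nTreg WT libraries (SD, n = 3 each). Bub1b (BubR1), the checkpoint partner of Mad2l1, was 6.85-fold and 12.7-fold higher with KO and WT.

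The 7 centromere and kinetochore genes were all called higher under both labels. Cenpa, the histone H3 variant that marks centromeres, had 204, 231 and 207 CPM in iTreg KO libraries, 233, 227 and 260.4 CPM in iTreg WT libraries, 53.1, 44.4 and 40.9 CPM in nTreg KO libraries and 41.2, 39.5 and 37.4 CPM in nTreg WT libraries. Its libraries lay close together within each group, and its difference was among the smallest of the members (4.64-fold with KO, adjusted p = 6.62e-08, and 6.10-fold with WT, adjusted p = 1.78e-08). The 4 subunits of the Ndc80 complex, which holds microtubules at the kinetochore, were higher by these amounts. Ndc80 was 6.42-fold higher with KO and 8.47-fold with WT, Nuf2 10.8-fold and 14.4-fold, Spc24 7.44-fold and 14.4-fold, and Spc25 10.1-fold and 16.4-fold. Cenpe, the kinetochore motor, was 7.28-fold and 12.8-fold higher, and Cenpf, a large kinetochore protein, 8.74-fold and 16.4-fold.

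All 8 kinesins and spindle proteins were called higher under both labels. Kif2c (MCAK), a kinesin that takes microtubules apart, had 109, 108 and 105 CPM in iTreg KO libraries, 125, 137 and 142 CPM in iTreg WT libraries, 11.4, 6.55 and 7.45 CPM in nTreg KO libraries and 9.90, 2.83 and 5.58 CPM in nTreg WT libraries. Hmmr, a spindle pole protein, had 145, 140.4 and 137 CPM in iTreg KO libraries, 165, 199.6 and 170.2 CPM in iTreg WT libraries, 15.1, 9.26 and 9.17 CPM in nTreg KO libraries and 12.4, 2.12 and 9.49 CPM in nTreg WT libraries. In both, the lowest iTreg library was far above the highest nTreg library, with fold differences of 12.9 with KO and 22.3 with WT for Kif2c and of 12.7 and 22.1 for Hmmr. Kif23, the motor of the central spindle, had 122, 103 and 119 CPM in iTreg KO libraries, 142, 160.1 and 137 CPM in iTreg WT libraries, 25.6, 17.1 and 19.1 CPM in nTreg KO libraries and 21.9, 11.9 and 16.6 CPM in nTreg WT libraries, the smallest difference of these 8 (5.60-fold with KO, 8.74-fold with WT). Tpx2, which activates Aurora A on the spindle, was 11.7-fold and 19.98-fold higher with KO and WT. Kif11 (Eg5), which pushes spindle poles apart, was 8.19-fold and 15.6-fold higher, and Kif4, a chromosome-bound kinesin, 8.99-fold and 17.5-fold. Kif20a, a cytokinesis motor, was 7.87-fold and 13.3-fold higher and Prc1, which bundles microtubules in the midzone, 6.99-fold and 10.5-fold. The exons of 3 of these overlap a gene on the other strand, Kif20a with Cdc23 over 29.3% of its exonic bases, Kif4 with Pdzd11 over 15.1% and Prc1 with Rccd1 over 11.1%. Among members of other roles, Ncapg overlaps Lcorl over 13.4%, Cdc25c overlaps Gm3550 over 12.7% and Ccna2 overlaps Exosc9 over 12.5%. Smaller overlaps on the other strand occur in Plk1, Cdca8, Cdc20 and Cdc25b. The levels of these members are less certain for the reason given for Ube2c.

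Of the cytokinesis genes, Anln (anillin), the scaffold of the contractile ring, had 64.7, 58.4 and 70.2 CPM in iTreg KO libraries, 83.4, 83.8 and 76.7 CPM in iTreg WT libraries, 9.73, 7.18 and 7.34 CPM in nTreg KO libraries and 4.87, 2.69 and 4.37 CPM in nTreg WT libraries. This was 8.02-fold higher in iTreg with KO (log2 3.0, SE 0.17, adjusted p = 1.10e-07) and 20.3-fold with WT (log2 4.34, SE 0.19, adjusted p = 1.78e-08). Racgap1, of the centralspindlin complex, was 5.01-fold and 8.20-fold higher, and Ect2, which activates RhoA at the cleavage furrow, 7.63-fold and 12-fold.

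The chromosome structure genes held both the most abundant members and the exception. Mki67, the coat protein of mitotic chromosomes known as the proliferation marker Ki-67, had 1451, 1049 and 1288 CPM in iTreg KO libraries, 1741, 1577 and 1626 CPM in iTreg WT libraries, 190.3, 177 and 190.4 CPM in nTreg KO libraries and 137, 94 and 170.4 CPM in nTreg WT libraries. Top2a, the topoisomerase that untangles sister chromatids, had 1686, 1211 and 1544 CPM in iTreg KO libraries, 1617, 1924 and 1792 CPM in iTreg WT libraries, 199, 136 and 141 CPM in nTreg KO libraries and 126, 63.4 and 115 CPM in nTreg WT libraries. Per kilobase of exon, Top2a was the highest and Mki67 the second highest member in iTreg, at 164 and 125.5 CPM per kb with KO and 197 and 164 CPM per kb with WT. Ncapd2 and Ncapg, subunits of condensin I, were 4.92-fold and 9.27-fold higher in iTreg with KO and 7.46-fold and 13.1-fold with WT, and Smc2, the condensin ATPase, 5.25-fold and 7.17-fold with KO and WT. Smc4, the partner of Smc2 in both condensins, went the other way, with 488, 509 and 638 CPM in iTreg KO libraries, 625, 624 and 764 CPM in iTreg WT libraries, 934, 928 and 960.1 CPM in nTreg KO libraries and 1321, 1323 and 1344 CPM in nTreg WT libraries. No iTreg library reached an nTreg library under either label, as for 32.8% of all genes with KO and 33.9% with WT. The log2 fold change of Smc4 was -0.79 with KO (SE 0.12, adjusted p = 0.00011) and -0.99 with WT (SE 0.12, adjusted p = 1.64e-05). Per kilobase, Smc4 (mm10 chromosome 3, 69004738 to 69034623, plus strand) ranked 1 of the 43 in nTreg (180.5 CPM per kb with KO, 255 CPM per kb with WT), while Smc2 ranked 9 and 8 (10.2 and 9.74 CPM per kb). GENCODE M21 shows no other gene in the exons of Smc4, but the annotation used for counting is not given, so whether a longer or shared gene model was counted could not be checked.

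**Figure D2:**
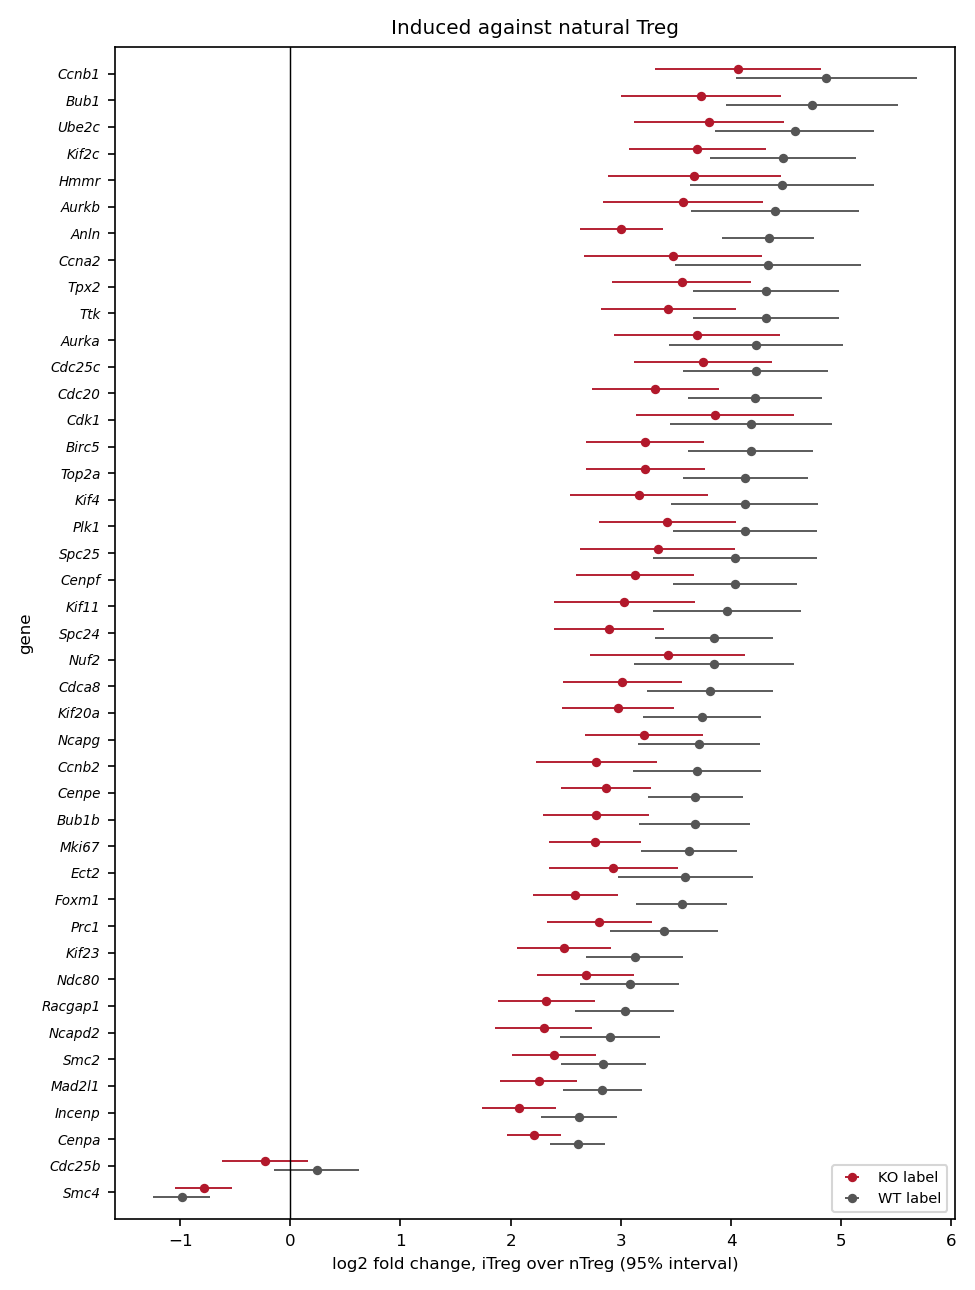
Log2 fold change of iTreg over nTreg for each member, with the 95% interval, for the KO label (red) and the WT label (grey), ordered by the value with WT. The points of 41 members lie right of 0 under both labels, the intervals of Cdc25b include 0, with its point left of 0 for KO and right of 0 for WT, and Smc4 lies left of 0.

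Other cell cycle genes were also higher in iTreg. Of 123 other mitosis genes, 106 were called higher and 3 lower with KO and 107 higher and 2 lower with WT, with median log2 fold changes of 1.61 and 1.99. Examples were Cks1b, a small subunit of Cdk complexes, at 111 ± 7.49 CPM in iTreg KO libraries and 112 ± 8.89 CPM in iTreg WT libraries, against 21.9 ± 3.10 CPM in nTreg KO libraries and 8.23 ± 1.06 CPM in nTreg WT libraries, and Stil, a centriole protein, at 125 ± 7.91 CPM in iTreg WT libraries against 6.55 ± 1.28 CPM in nTreg WT libraries (SD, n = 3 each). All 55 S phase genes were called higher under both labels, with medians of 1.87 with KO and 2.29 with WT. Mcm6, of the replicative helicase, averaged 750 ± 37.8 CPM in iTreg KO libraries and 837 ± 35.6 CPM in iTreg WT libraries, against 209.7 ± 11.7 CPM in nTreg KO libraries and 190.0 ± 10.4 CPM in nTreg WT libraries. The summed level of the members without Smc4, divided by that of the S phase genes, was 0.999 to 1.21 in iTreg KO libraries and 1.14 to 1.33 in iTreg WT libraries, against 0.510 to 0.586 in nTreg KO libraries and 0.353 to 0.522 in nTreg WT libraries. The mitotic genes were thus further apart between the cell types than the S phase genes in these sums, which leave out Smc4. This is a description with no test.

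In natural Treg the KO label went with slightly higher levels of nearly all mitotic genes, of which few passed the test. The log2 fold change of KO over WT was above 0 for 41 of 43 members, beside 51.7% of all genes, with a median of 0.47 against 0.01. Of the 43 members 1, Anln, was called higher and 1, Smc4, lower, beside 2.53% of all genes called, 2.18% higher and 0.341% lower. An unadjusted p under 0.05 was reached by 14 members, against 13.4% of all genes. DESeq2 called 3 members, Foxm1 in addition, beside 486 genes called among all those it tested. The share of 2.53% is that of edgeR and does not apply to this count.

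Anln had 9.73, 7.18 and 7.34 CPM in nTreg KO libraries, against 4.87, 2.69 and 4.37 CPM in nTreg WT libraries. Every KO library lay above every WT library. The gene lies on mm10 chromosome 9 at 22332012 to 22389188, minus strand. It was 2.0-fold higher with KO (log2 1.0, SE 0.20, 95% interval 0.57 to 1.43, adjusted p = 0.016), on 68 to 114 reads per KO library and 19 to 47 per WT library. Smc4 had 934, 928 and 960.1 CPM in nTreg KO libraries, against 1321, 1323 and 1344 CPM in nTreg WT libraries. Its libraries were close together within each label and the labels did not overlap, and it was 1.41-fold lower with KO (log2 -0.50, SE 0.12, 95% interval -0.75 to -0.24, adjusted p = 0.044). Smc2, which pairs with Smc4, did not pass the test, at 56.1 ± 9.13 CPM in nTreg KO libraries and 53.3 ± 9.58 CPM in nTreg WT libraries (log2 0.07, SE 0.17, adjusted p = 0.91). The Anln call was lost without nTreg WT library 2 (adjusted p = 0.061), nTreg WT library 3 (0.055) or nTreg KO library 1 (0.069). The Smc4 call was lost without any 1 of the 6 nTreg libraries (adjusted p = 0.13 to 0.18) or without iTreg WT library 1 (0.059) or 2 (0.056), and its log2 fold change stayed between -0.51 and -0.49.

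Most members ranked the nTreg libraries alike. In the 6 nTreg libraries, KO library 1 was the highest in 39 of 43 members and WT library 2 the lowest in 39. Foxm1 had 32.8, 24.2 and 27.2 CPM in nTreg KO libraries, against 21.7, 12 and 20.3 CPM in nTreg WT libraries, and its labels did not overlap (log2 0.63, SE 0.18, adjusted p = 0.12). Birc5 had 24.9, 16.5 and 20.9 CPM in nTreg KO libraries, against 15.4, 6.37 and 15.6 CPM in nTreg WT libraries (log2 0.71, SE 0.25, adjusted p = 0.22). Mki67 had 190.3, 177 and 190.4 CPM in nTreg KO libraries, against 137, 94 and 170.4 CPM in nTreg WT libraries (log2 0.47, SE 0.18, adjusted p = 0.27). In these 3 genes the KO libraries lay above the WT libraries, with WT library 2 well below the rest. Top2a had 199, 136 and 141 CPM in nTreg KO libraries, against 126, 63.4 and 115 CPM in nTreg WT libraries (log2 0.64, SE 0.23, adjusted p = 0.24). Spc24 had 11.8, 7.37 and 7.12 CPM in nTreg KO libraries, against 5.17, 3.96 and 6.05 CPM in nTreg WT libraries (log2 0.76, SE 0.25, adjusted p = 0.19). The labels did not overlap in 8 members with KO higher, which also include Ccnb2 and Cenpf, and in 1, Smc4, with KO lower, beside 15.7% and 14.1% of all genes, so the 8 members are close to the background share. Cdc20 had 28.6, 14.9 and 17.7 CPM in nTreg KO libraries, against 17, 7.93 and 11.7 CPM in nTreg WT libraries, and Kif11 had 58.2, 33.6 and 41.5 CPM in nTreg KO libraries, against 41.2, 15.4 and 33 CPM in nTreg WT libraries. In both, the labels overlapped (adjusted p = 0.25 and 0.42). Cdk1 had 22.7, 10.7 and 10.6 CPM in nTreg KO libraries, against 19.8, 7.36 and 11.4 CPM in nTreg WT libraries, with KO library 1 and WT library 1 high in their groups (log2 0.18, 95% interval -0.55 to 0.90, adjusted p = 0.87). Ccnb1 had 8.81, 2.90 and 3.45 CPM in nTreg KO libraries, against 4.87, 1.98 and 2.60 CPM in nTreg WT libraries, also overlapping (log2 0.65, 95% interval -0.26 to 1.55, adjusted p = 0.54).

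The median of the members was 0.205 without nTreg WT library 2, 0.19 without nTreg KO library 1 and 0.77 without nTreg WT library 1, so its size moved with these libraries. With the same-numbered libraries set against each other, the median KO minus WT difference in log2 (CPM + 1) was 0.42 for number 1, 0.83 for number 2 and 0.14 for number 3, with 41, 40 and 33 of 43 members higher. In all 3 pairs 32 members were higher, beside 28.8% of all genes, and 1, Smc4, was lower in all 3, beside 28.0%. With the replicate number as a block, 13 members were called higher and 1 lower, beside 9.0% of all genes called, 5.36% higher and 3.64% lower. These were the kinases and passenger genes Plk1 (log2 0.51, adjusted p = 0.028), Birc5 (0.77, 0.013) and Cdca8 (0.58, 0.040), and the checkpoint and anaphase genes Cdc20 (0.74, 0.0029), Ube2c (0.80, 0.030) and Bub1b (0.52, 0.026). The others called higher were Foxm1 (0.66, 0.0090), Spc24 (0.75, 0.030), Kif11 (0.62, 0.030), Anln (1.02, 0.0056), Racgap1 (0.48, 0.0058), Mki67 (0.51, 0.041) and Ncapd2 (0.37, 0.039), and Smc4 was lower (-0.50, 0.0011). Pair 2, the one with the widest difference, was also the pair with the highest myeloid marker sums, 498 CPM with KO and 225 CPM with WT, and pair 3 held the Xist reads. Without both libraries numbered 2 the median was 0.32, and without the 3 libraries with Xist it was 0.55, with 0 members called in each by edgeR. A list of 6 B cell markers also moved with the label, at 16.5 to 17.2 CPM in nTreg KO libraries and 28.1 to 33.7 CPM in nTreg WT libraries, nearly all of it Cd79b and Cd22, with Pax5 at or near 0. The sum of the 6 NK cell markers was likewise lower with KO, at 4.29 to 5.04 CPM in nTreg KO libraries and 6.42 to 12.9 CPM in nTreg WT libraries. It was mostly Klrb1c, which overlapped between the labels, and Eomes, which did not, with Ncr1 and Klra8 at or near 0. The sum of the 4 plasma cell markers was higher, at 149.6 to 163 CPM in nTreg KO libraries and 128 to 144 CPM in nTreg WT libraries. Most of it was Irf4, which T cells also express, at 145.8, 148.4 and 151.4 CPM with KO and 115.5, 126.7 and 129.8 CPM with WT. Igj went the other way in each same-numbered pair, at 16.69, 0.819 and 1.295 CPM with KO and 27.92, 0.991 and 1.396 CPM with WT. Sdc1 overlapped between the labels, and Tnfrsf17 was at or near 0. The part of these markers in the result was not tested.

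**Figure D3:**
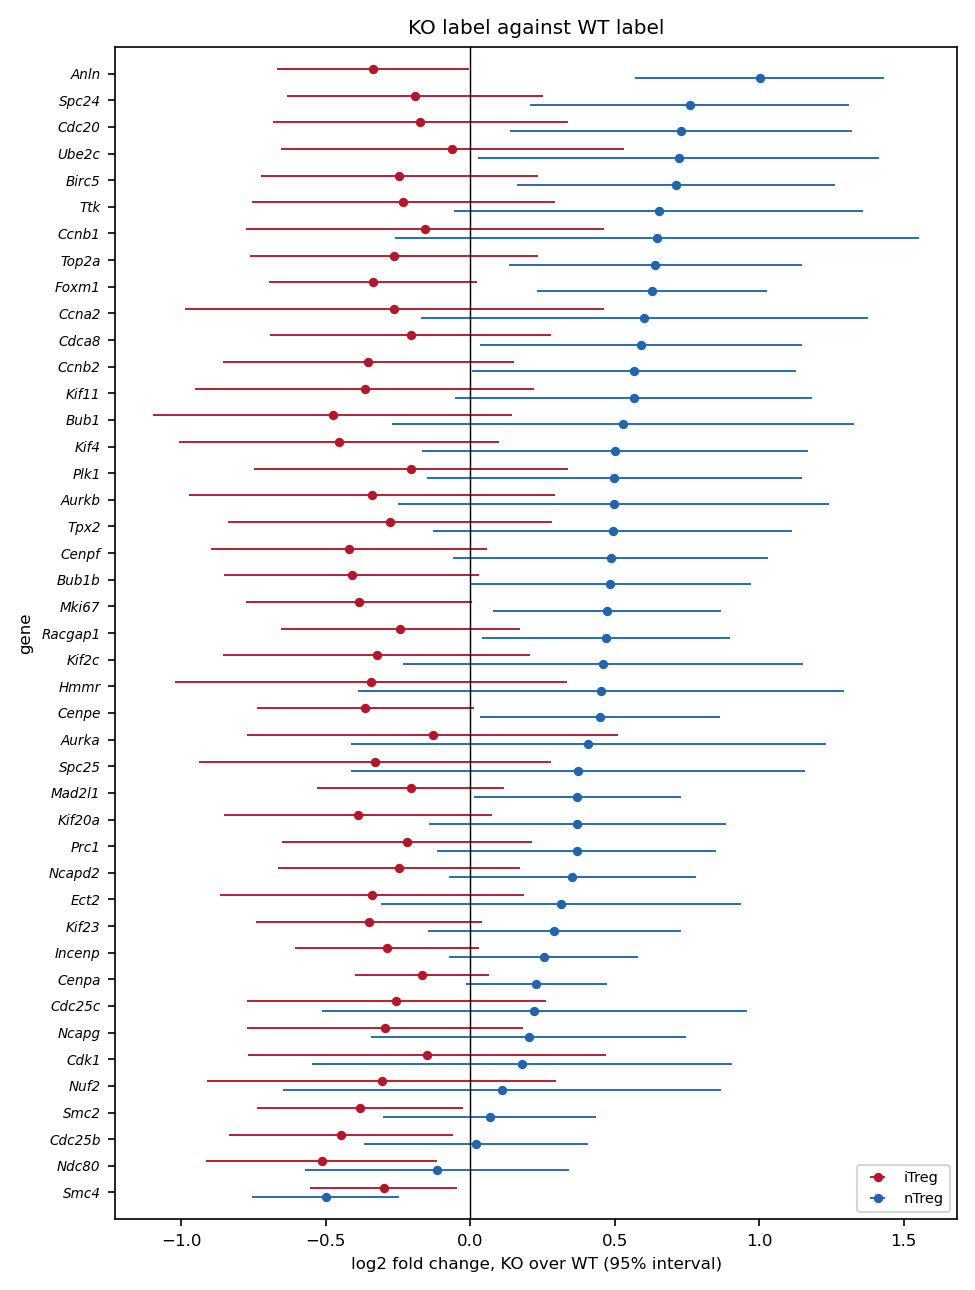
Log2 fold change of KO over WT for each member, with the 95% interval, in iTreg (red) and nTreg (blue), ordered by the value in nTreg. The nTreg points lie right of 0 for 41 of 43 members and the iTreg points left of 0 for all 43, and most intervals cross 0.

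In induced Treg all 43 members were lower with the KO label than with the WT label in the fitted values, and none passed the test. The median log2 fold change was -0.30, against -0.01 for all genes, of which 52.5% were below 0. With edgeR 0 members were called, beside 0.183% of all genes, 5 had an unadjusted p under 0.05, beside 7.56% of all genes, and DESeq2 called 0. The values ran from -0.51 for Ndc80 to -0.06 for Ube2c, or ratios of KO to WT of 0.701 to 0.958, with adjusted p from 0.51 to 0.98. The labels did not overlap in 27 members, all with KO lower, beside 4.95% of all genes, and in 0 with KO higher, beside 4.68%.

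Ndc80 had 89, 95.1 and 73.7 CPM in iTreg KO libraries, against 122, 144 and 102 CPM in iTreg WT libraries (log2 -0.51, SE 0.18, 95% interval -0.91 to -0.11, adjusted p = 0.51). Cdc25b had 140.5, 116 and 164 CPM in iTreg KO libraries, against 175, 176 and 222 CPM in iTreg WT libraries (log2 -0.45, SE 0.18, adjusted p = 0.59). In both genes the highest KO library lay below the lowest WT library. Mki67 had 1451, 1049 and 1288 CPM in iTreg KO libraries, against 1741, 1577 and 1626 CPM in iTreg WT libraries (log2 -0.38, SE 0.18, adjusted p = 0.67). Bub1b had 194, 177 and 199 CPM in iTreg KO libraries, against 243, 262 and 253 CPM in iTreg WT libraries (log2 -0.41, SE 0.20, adjusted p = 0.70). Anln had 64.7, 58.4 and 70.2 CPM in iTreg KO libraries, against 83.4, 83.8 and 76.7 CPM in iTreg WT libraries (log2 -0.34, SE 0.15, adjusted p = 0.66). None of these 3 overlapped between labels, and the Mki67 level of KO library 2 was the farthest from its group. Incenp, at 299, 281 and 312 CPM in iTreg KO libraries, against 343, 354 and 392 CPM in iTreg WT libraries, and Kif23, at 122, 103 and 119 CPM in iTreg KO libraries, against 142, 160.1 and 137 CPM in iTreg WT libraries, likewise did not overlap (log2 -0.29 and -0.35, adjusted p = 0.71 each). Top2a had 1686, 1211 and 1544 CPM in iTreg KO libraries, against 1617, 1924 and 1792 CPM in iTreg WT libraries (log2 -0.26, 95% interval -0.76 to 0.23, adjusted p = 0.85). Cdk1 had 212, 218 and 198 CPM in iTreg KO libraries, against 210.2, 258 and 228 CPM in iTreg WT libraries (log2 -0.15, 95% interval -0.77 to 0.47, adjusted p = 0.95). Ccnb1 had 86.3, 78.2 and 79.2 CPM in iTreg KO libraries, against 79, 88.2 and 104 CPM in iTreg WT libraries (log2 -0.16, adjusted p = 0.95). In these 3 genes the labels overlapped. Smc4 had 488, 509 and 638 CPM in iTreg KO libraries, against 625, 624 and 764 CPM in iTreg WT libraries, lower with KO as in nTreg but overlapping (log2 -0.30, SE 0.12, adjusted p = 0.57).

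In iTreg the label at both ends was the same for all members, though the library was not. The highest of the 6 was a WT library in all 43, library 2 in 28, library 3 in 11 and library 1 in 4. The lowest was a KO library in all 43, library 2 in 22, library 3 in 16 and library 1 in 5. Set against each other by number, KO minus WT had a median of -0.19 for number 1, -0.40 for number 2 and -0.32 for number 3 in log2 (CPM + 1), with 37, 42 and 43 members lower. In all 3 pairs 36 members were lower, beside 18.6% of all genes, and 0 were higher, beside 14.1%. With the replicate block 2 members were called lower, Cdc25b (log2 -0.45, adjusted p = 0.030) and Ndc80 (-0.51, adjusted p = 0.038), beside 0.274% of all genes called lower and 0.947% in either direction. WT library 2 is the iTreg library with Xist and without Ddx3y, and without the 3 libraries with Xist the median was -0.27. Of the 7 marker lists, the sum of the CD8 T cell markers Cd8a and Cd8b1 separated the labels in iTreg, at 8.42 to 10.85 CPM with KO and 12.6 to 21.3 CPM with WT, highest in WT library 2. The myeloid sum overlapped (4.13 to 6.02 CPM with KO, 4.13 to 5.42 CPM with WT). The part of these markers in the result was not tested.

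**Figure D4:**
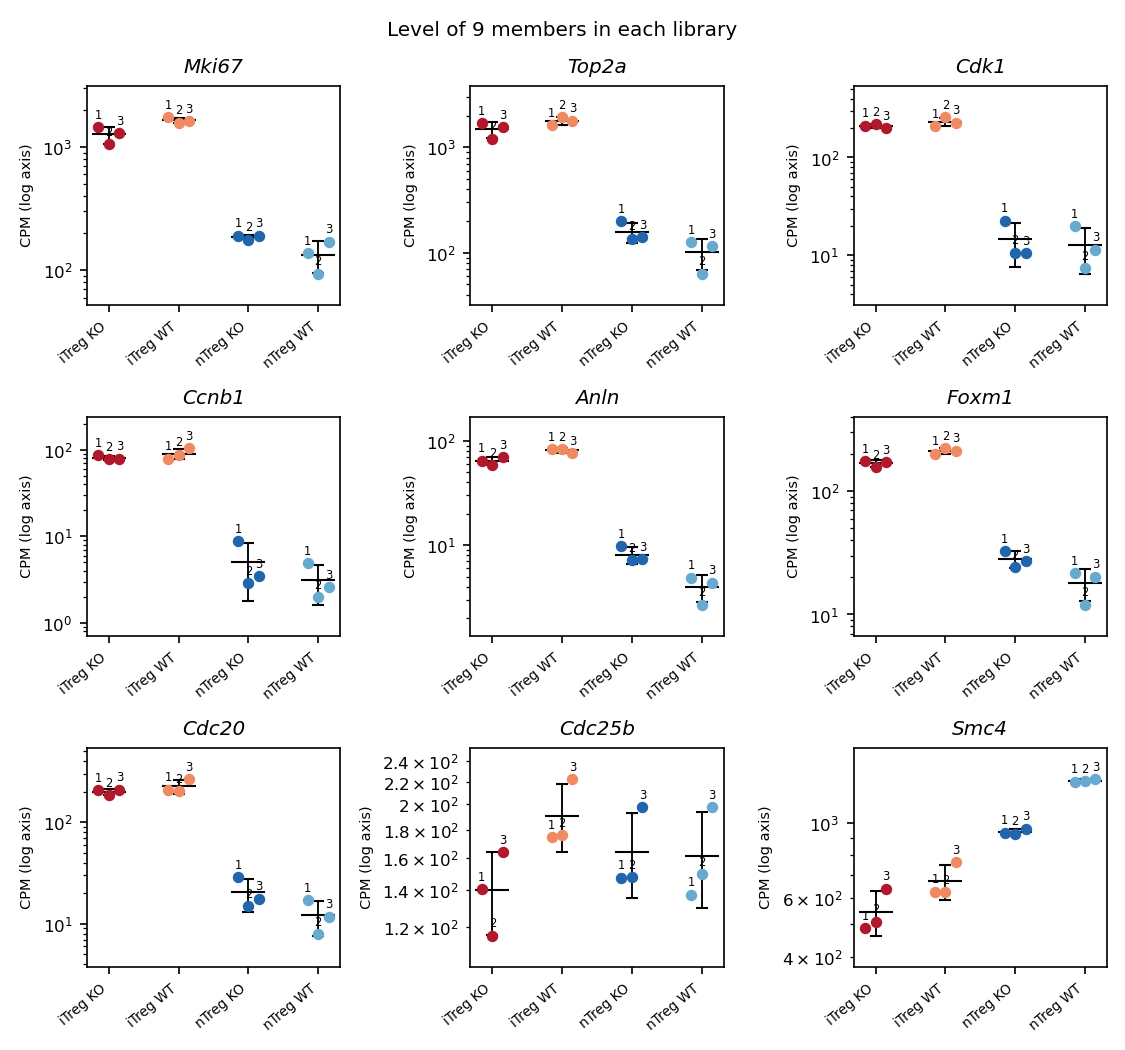
CPM on a log axis of 9 members in each library, with the replicate number over each point and the mean ± SD of the 3 libraries per group. In nTreg the KO points of Anln, Foxm1, Mki67 and Top2a lie above the WT points, and in iTreg the KO points of Anln, Foxm1 and Mki67 lie below them. Smc4 is lower in nTreg KO than in nTreg WT and lowest in iTreg.

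The KO effects of the 2 cell types were compared by their difference, iTreg minus nTreg. It was below 0 for 42 of 43 members, with Smc4 at 0.20 the exception, beside 54.6% of all genes, and the median was -0.78 against -0.03 for all genes. With edgeR 0 members were called, beside 0.291% of all genes, and 22 had an unadjusted p under 0.05, beside 7.44% of all genes. DESeq2 called 2, Anln and Foxm1, a count given here without its share over all genes. Anln came nearest, with a difference of -1.34 (SE 0.25, 95% interval -1.88 to -0.79, adjusted p = 0.056). It was called when only genes with at least 5 CPM in 3 libraries were tested (adjusted p = 0.0495). Foxm1 followed at -0.97 (SE 0.25, adjusted p = 0.19) and Mki67 at -0.86 (SE 0.25, adjusted p = 0.30). Cenpe stood at -0.81 (adjusted p = 0.36), Bub1b at -0.89 (0.42), Birc5 at -0.96 (0.46), Top2a at -0.90 (0.49) and Kif4 at -0.96 (0.61). Ccnb1, at -0.80 (95% interval -1.90 to 0.30, adjusted p = 0.85), and Cdk1, at -0.33 (-1.28 to 0.63, adjusted p = 0.98), had intervals that include 0. With the replicate block, 11 members were called lower, beside 1.46% of all genes called lower and 1.8% in either direction. They were Foxm1 (-0.99, adjusted p = 0.016), Plk1 (-0.72, 0.043), Birc5 (-1.02, 0.033), Bub1b (-0.93, 0.019), Cdc20 (-0.91, 0.014), Kif11 (-0.99, 0.039), Kif20a (-0.79, 0.044), Anln (-1.35, 0.013), Racgap1 (-0.72, 0.014), Mki67 (-0.91, 0.043) and Ncapd2 (-0.62, 0.046). In 5 members every KO library lay above every WT library in nTreg and below every WT library in iTreg, beside 0.415% of all genes. These were Ccnb2, Foxm1, Birc5, Anln and Mki67. The median was -0.48 without nTreg WT library 2, -0.53 without nTreg KO library 1 and -1.06 without nTreg WT library 1. The comparisons of iTreg with nTreg and of KO with WT use the same libraries, so the smaller distance between the cell types with KO (8.19-fold against 14.4-fold in the median) restates this difference.

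**Figure D5:**
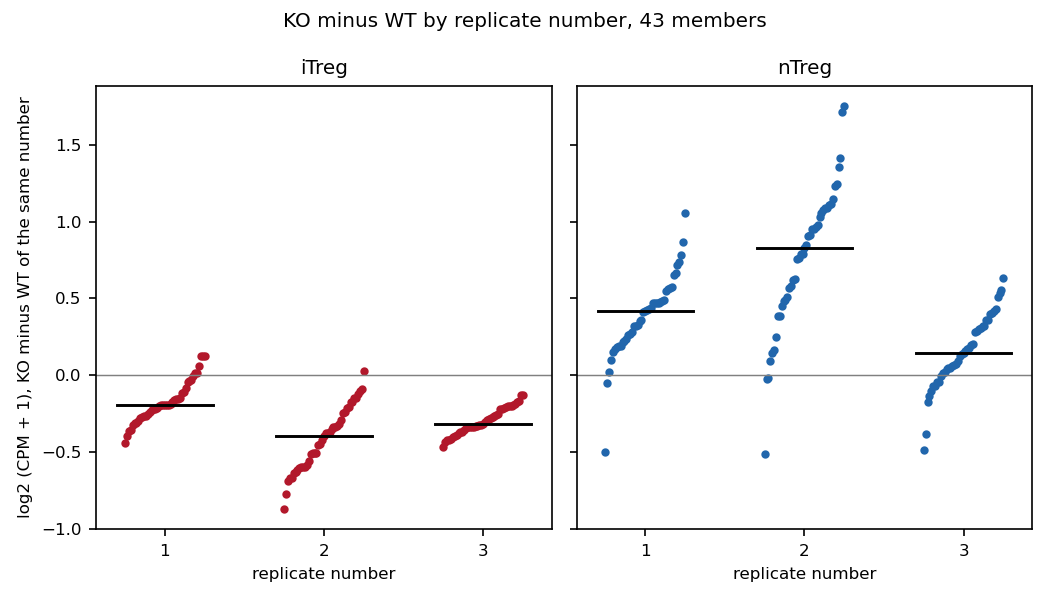
Difference of KO minus WT in log2 (CPM + 1) between libraries of the same replicate number, 1 point per member, for iTreg (left) and nTreg (right), with a bar at the median. The medians are -0.19, -0.40 and -0.32 in iTreg and 0.42, 0.83 and 0.14 in nTreg.

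The medians of the other cell cycle lists had the same sign as that of the members and were smaller, while single genes differed. Of the 123 other mitosis genes, 1 was called in nTreg, Cks1b, at 21.9 ± 3.10 CPM in nTreg KO libraries and 8.23 ± 1.06 CPM in nTreg WT libraries (log2 1.4, SE 0.14, adjusted p = 0.00012). The list's median was 0.18 in nTreg, where 88 of 123 were above 0, and -0.22 in iTreg, where 0 were called and 110 were below 0. In nTreg the value of Cks1b was larger than that of any of the 43 members. Of the other mitosis genes, the difference was called for Cks1b alone (-1.41, adjusted p = 0.012), and of the S phase genes for 0. Of the 55 S phase genes, 2 were called higher in nTreg KO. Cdc45, of the replicative helicase, averaged 16.45 ± 2.24 CPM in nTreg KO libraries and 8.46 ± 1.47 CPM in nTreg WT libraries (log2 0.94, adjusted p = 0.025). E2f1, an activator of S phase genes, averaged 14.7 ± 1.23 CPM in nTreg KO libraries and 8.72 ± 1.44 CPM in nTreg WT libraries (log2 0.74, adjusted p = 0.032). The S phase medians were 0.19 in nTreg and -0.15 in iTreg, against 0.47 and -0.30 for the mitosis and G2/M genes. The replicate block raised the calls of these lists too. In nTreg it called 13 of the 123 other mitosis genes higher and 1 lower, and 10 of the 55 S phase genes higher and 1 lower. For the difference it called 11 other mitosis genes and 7 S phase genes lower, among them Dlgap5, a spindle protein (adjusted p = 0.0088), and Cdc45 (adjusted p = 0.0088), and in iTreg 0 and 1 lower. In iTreg the other mitosis genes of smallest p were Hjurp, the chaperone of Cenpa (log2 -0.54, adjusted p = 0.23), and Ncapd3, of condensin II (log2 -0.41, adjusted p = 0.23).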

How the data were processed

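RNA was sequenced from 12 Treg libraries, 3 per group, per the labels. The authors deposited whole-number read counts per gene symbol, 23337 symbols in each library. Per the submitters' processing notes, cutadapt 1.13, STAR, HTSeq 0.6.1p1, DESeq2 and the build mm10 were used, while the role of each, the annotation and the strand setting are not given in the sources used here. The labels give no batch or date.

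The test was the quasi-likelihood F test of edgeR 4.0.16 in R 4.3.3, robust and TMM-normalised, in 1 fit over all 12 libraries with a term per group (8 residual degrees of freedom). The filter filterByExpr (minimum count 10, minimum total 15) kept 12038 symbols, among them all 43 members. P-values were adjusted by Benjamini-Hochberg over these genes, with 0.05 as the threshold and no fold limit. SE is the log2 fold change over the square root of F, and intervals are 95%. CPM are TMM-normalised, and paired differences use log2 (CPM + 1). It was tested on simulated data.

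Libraries of the same number correlated in their deviations from group means between KO and WT (Pearson's r 0.545 to 0.651 in nTreg, 0.337 to 0.664 in iTreg), but not between iTreg and nTreg (-0.0823 to 0.0992). The replicate number by cell type was therefore fitted as a block (4 residual degrees of freedom) beside the KO comparisons. For iTreg against nTreg the block was the replicate number by label, although the numbers did not correlate there. DESeq2 1.42.0, other scalings and filters, and leaving out libraries were alternatives.

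Values per library are given in each comparison for Mki67, Cdk1, Ccnb1 and Top2a, up to 8 called members of largest change without overlap, and the member of smallest p per role. Other genes singled out (Cdc25b, Smc4 and Cdc20 between cell types, for example) were chosen after their values were seen. The members and lists were chosen with earlier results of these data known. Exon lengths and overlaps are from GENCODE M21 (GRCm38, the assembly of mm10) and promoters from RefSeq GRCm38.p6. Figures were drawn with matplotlib 3.10.9.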

Additional observations from a re-analysis of the deposited data

Results flagged for a closer look

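In 5 members every KO library lay above every WT library in nTreg and below every WT library in iTreg, which is what drew attention to them, beside 0.415% of all genes. The difference of the KO effects (iTreg minus nTreg, log2) was -0.92 for Ccnb2, -0.97 for Foxm1, -0.96 for Birc5, -1.34 for Anln and -0.86 for Mki67. The difference itself was tested with edgeR, and 0 of the 5 passed (adjusted p = 0.52 for Ccnb2, 0.19 for Foxm1, 0.46 for Birc5, 0.056 for Anln and 0.30 for Mki67). The genes were picked on the same libraries for opposite separation, so these tests are not independent of the choice and are given as a description.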

How the results depend on the processing

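Between iTreg and nTreg, 42 members were called under every alternative run, the replicate block and each left-out library included, with medians of 2.91 to 3.27 with KO and 3.65 to 4.21 with WT. In nTreg, KO against WT, the count of 2 (beside 2.53% of all genes) became 14 with the replicate block (beside 9.0%). It was 0 without both nTreg libraries numbered 2 and 0 without the 3 libraries with Xist. When a library was left out it was 0 to 2, while the median stayed between 0.19 and 0.77. In iTreg, 0 members were called under every alternative but the replicate block (2, beside 0.947% of all genes), and the median stayed between -0.33 and -0.27. For the difference, 0 became 1 with at least 5 CPM in 3 libraries, 2 with DESeq2 and 11 with the replicate block (beside 1.8% of all genes). The shares over all genes for the stricter filter and for DESeq2 are not given here. The median of the difference stayed between -1.06 and -0.48. With a library left out, Cdk1 ranged from -0.26 (without nTreg KO library 1) to 0.60 (without nTreg WT library 1) in nTreg, with -0.09 without nTreg WT library 2, and from -0.75 to 0.11 (without nTreg KO library 1) in the difference, so its sign was not fixed. The cause of these moves was not tested, and the runs that leave out libraries also have fewer of them. With 19 to 114 reads per nTreg library for Anln and 11 to 35 for Cdc25c, counting error limits the lowest members, and 3 libraries a group limit all of them.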
